A study of Mus musculus with 20 samples.

Results

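The genes described here are 37 interferon response genes, chosen by name as genes known to be induced by type I interferon and found by symbol among the 52783 genes of the count table. They were chosen with earlier results of these data known, so their shares beside those of all genes are a description. RNA was sequenced from sorted cells of 66cl4 and 67NR tumours, which are grown from mouse mammary carcinoma cell lines of the 4T1 family. In this family 66cl4 spreads to the lungs and 67NR does not. Each line was injected as 1000000 cells into the mammary fat pad of untreated, young adult female BALB/cJ mice, 5 animals per tumour. Each tumour was dissociated and live cells were sorted on the leukocyte antigen CD45, which gave 4 groups of 5 libraries: 66cl4 CD45+, 67NR CD45+, 66cl4 CD45- and 67NR CD45-. Each tumour type is 1 cell line, and its CD45- gate holds tumour cells together with fibroblasts and other stroma. All 37 genes had counts above 0 in every library.

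Type I interferons, interferon-β and the interferon-α family, are made by cells that detect foreign or misplaced nucleic acid. They bind the receptor chains encoded by Ifnar1 and Ifnar2, and the kinases JAK1 and TYK2 then activate the transcription factor ISGF3, which contains STAT2 and IRF9. ISGF3 binds the interferon-stimulated response element, a DNA element with repeated GAAA, and switches on genes for nucleic acid sensors, antiviral enzymes, protein modifiers and feedback regulators. Interferon-γ, made by NK and T cells, acts through another receptor and induces many of the same genes. In tumours such genes are read as a trace of interferon exposure of the cells that carry them.

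Depth ranged from 12960000 to 28080314 counts per library, so that 3 counts, the limit that a count of 0 allows, equalled a level of 1.87 to 4.68. Levels are normalised counts throughout, that is counts divided by a size factor per library, unless TPM is named. Ptprc, which encodes CD45, was at 15890 to 28449 in the 10 CD45+ libraries and at 10.6 to 473 in the 10 CD45- libraries. The libraries of 66cl4 animals 5 and 6 carry a sample title and a recorded cell type that name opposite gates. Their Ptprc levels lay with the gate of the title, which was used for grouping. For each comparison that holds these animals, calls are also described without them. Summed over 6 epithelial markers, levels were 6057 to 6844 in 66cl4 CD45- and 125 to 391 in 67NR CD45- libraries, a sum carried by Krt8 and Krt18, while Epcam of the same list was called lower in 66cl4 (-1.41 ± 0.51, adjusted p = 0.0267, log2 fold change with standard error). The 6 fibroblast markers summed to 9264 to 14626 and 10328 to 16698. In such bulk samples fewer cells of a type and less RNA per cell cannot be told apart.

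The response element was looked for in the 250 bases before the transcription start, in the RefSeq promoter table for GRCm38.p6, which held 28 of the 37 genes. Its core, GAAA, any 2 bases and GAAA on either strand, was found in 12 of the 28, or 42.9%, against 3.46% of the 27025 genes in the table. A longer form, the core followed by CT, was found in 8 of the 28, or 28.6%, against 0.255% of all genes. The gamma-activated site TTCNNNGAA, which reads the same on both strands, was found in 4 of the 28 genes, or 14.3%, against 8.13% of all genes. The 8 sequences here are the 200 bases before the start, written 5′ to 3′ on the strand of the gene, of 7 members that hold the element and of Ifih1, which does not. The share of members shown with it is thus no estimate for the 37 genes. Ifit2, Irf7, Ifi44 and Oasl1, which also differed between the tumours, are in the table, held no core element in the 250 bases and are not shown. Capitals mark each core element, which reads TTTC, any 2 bases and TTTC where it lies on the other strand.
Isg15, chr4:156200819-156201018, minus strand: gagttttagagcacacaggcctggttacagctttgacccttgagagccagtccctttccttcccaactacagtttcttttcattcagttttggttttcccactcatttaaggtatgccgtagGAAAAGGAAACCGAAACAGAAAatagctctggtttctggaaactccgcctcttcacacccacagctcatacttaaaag
Ifit1, chr19:34640689-34640888, plus strand: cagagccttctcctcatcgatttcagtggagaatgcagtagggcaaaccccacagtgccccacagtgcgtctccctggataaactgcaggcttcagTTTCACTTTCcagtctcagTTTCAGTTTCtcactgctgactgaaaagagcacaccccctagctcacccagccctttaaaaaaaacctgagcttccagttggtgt
Ifit3, chr19:34583329-34583528, plus strand: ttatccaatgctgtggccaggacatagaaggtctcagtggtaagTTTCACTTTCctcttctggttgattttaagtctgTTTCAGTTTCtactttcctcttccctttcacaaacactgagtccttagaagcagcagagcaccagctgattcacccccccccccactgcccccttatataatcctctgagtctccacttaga
Ifit3b, chr19:34607757-34607956, plus strand: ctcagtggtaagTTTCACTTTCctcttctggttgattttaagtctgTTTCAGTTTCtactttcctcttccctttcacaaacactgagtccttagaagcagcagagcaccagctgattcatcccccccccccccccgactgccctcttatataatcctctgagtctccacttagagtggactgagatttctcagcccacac
Rsad2, chr12:26456453-26456652, minus strand: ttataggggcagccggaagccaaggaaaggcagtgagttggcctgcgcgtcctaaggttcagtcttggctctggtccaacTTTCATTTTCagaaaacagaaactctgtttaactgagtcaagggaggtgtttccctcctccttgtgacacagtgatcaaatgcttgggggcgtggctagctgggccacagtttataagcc
Bst2, chr8:71537473-71537672, minus strand: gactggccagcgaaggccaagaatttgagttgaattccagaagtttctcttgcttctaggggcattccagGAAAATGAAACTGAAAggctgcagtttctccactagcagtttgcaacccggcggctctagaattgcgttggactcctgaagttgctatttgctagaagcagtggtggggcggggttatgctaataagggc
Ddx60, chr8:61927887-61928086, plus strand: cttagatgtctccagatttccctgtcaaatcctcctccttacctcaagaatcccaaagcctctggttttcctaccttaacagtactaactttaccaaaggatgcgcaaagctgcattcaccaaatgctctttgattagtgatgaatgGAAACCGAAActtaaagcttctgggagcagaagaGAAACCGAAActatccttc
Ifih1, chr2:62646256-62646455, minus strand: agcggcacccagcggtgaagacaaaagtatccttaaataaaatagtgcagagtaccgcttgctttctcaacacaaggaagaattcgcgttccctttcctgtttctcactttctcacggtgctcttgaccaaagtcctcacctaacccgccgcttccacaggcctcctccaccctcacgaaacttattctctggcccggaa

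Isg15 held 3 overlapping core elements, Bst2 held 2 that overlap, and Ifit1, Ifit3, Ifit3b and Ddx60 held 2 each apart from each other. The pair in Ifit3 began 156 and 122 bases before the start and the pair in Ifit3b began 188 and 154 bases before it. Shifted by 32 bases, the promoters of these neighbouring genes were identical at 138 of 168 bases, or 82.1%. Rsad2 held 1 core element and Ifih1 none in this window. Such a match is a description of letters, and their absence from this window says nothing of the factor. Because Ifit3 and Ifit3b, Oas1a and Oas1g, and Mx1 and Mx2 are close copies, the counting could have divided reads between the members of a pair, and their values are uncertain to that extent.

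To see whether leukocytes of the 2 tumours differed, CD45+ libraries were compared between 66cl4 and 67NR. Calls needed 2 things, an adjusted p-value below 0.05 and a change of more than 1 on the log2 scale in either direction. Of the 37 genes, 15 were called, all 15 lower in 66cl4. Of the 14676 genes tested 6.82% were called lower, 5.01% higher and 11.8% in all. A further 15 passed the adjusted p-value with a smaller change, again lower in 66cl4, which makes 30 beside 11.3% of all genes, and 7 did not pass. The median log2 fold change was -0.94 over the 37 genes and 0.01 over all genes. Libraries of the 2 tumours did not overlap for 24 of the 37 genes, each time with 66cl4 below 67NR, which held for 7.96% of all genes tested. Every point for CD45+ cells in the plot of fold changes by gate therefore lies left of or at 0.

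**Figure D1:**
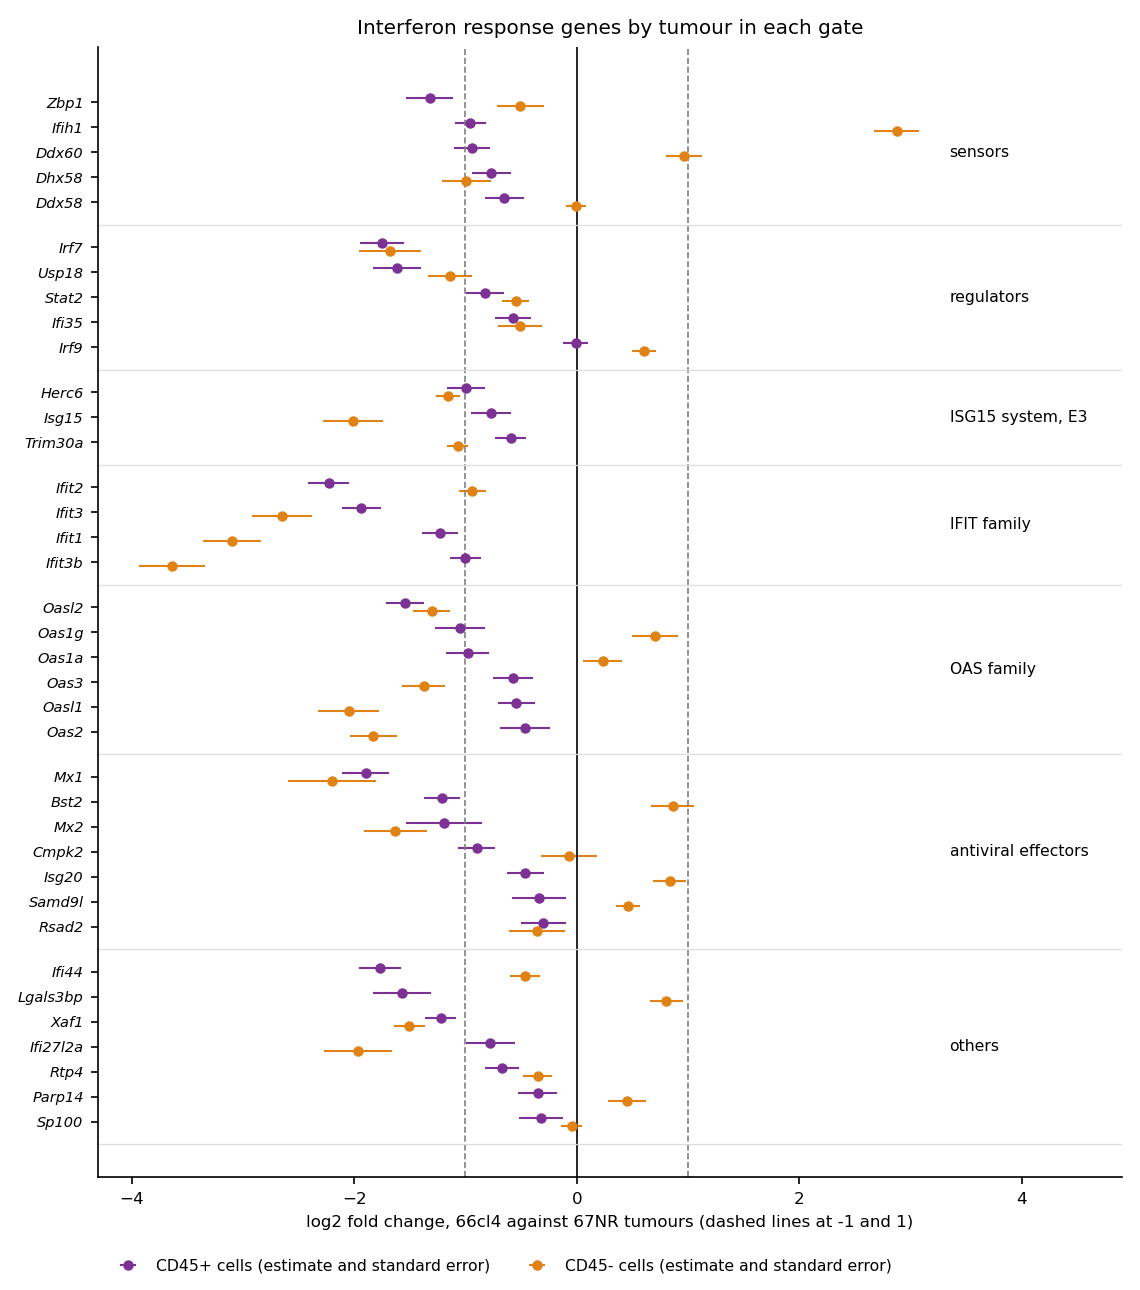
Log2 fold change of each of the 37 genes between 66cl4 and 67NR tumours (x axis) in CD45+ and CD45- cells, as estimate and standard error with 5 libraries per group, grouped by role on the y axis. CD45+ values run from -2.23 (Ifit2) to -0.01 (Irf9), and CD45- values from -3.64 (Ifit3b) to 2.87 (Ifih1).

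The IFIT family encodes proteins that bind foreign RNA and block its translation. All 4 members were called lower in 66cl4 CD45+ cells. Ifit2 had the largest difference of the 37 genes, with levels of 312, 456, 272, 437 and 344 in 66cl4 and 1516, 1243, 1720, 2042 and 2139 in 67NR tumours. Here and for every gene, 66cl4 values are given for animals 3, 4, 5, 6 and 7 and 67NR values for animals 1, 4, 5, 6 and 7. The lowest 67NR library was thus well above the highest 66cl4 library, and the log2 fold change was -2.23 ± 0.18, adjusted p = 2.99e-05 (standard error, edgeR's quasi-likelihood test). Ifit3 was at 355, 558, 320.1, 451 and 367 in 66cl4 and 1419, 1164, 1682, 1693 and 2000 in 67NR tumours (-1.93 ± 0.18, adjusted p = 5.26e-05). Ifit1 was at 649.5, 626, 682, 970.1 and 495 in 66cl4 and 1628, 1423, 1653, 1805 and 1565 in 67NR tumours (-1.23 ± 0.16, adjusted p = 0.00041). Neither gene had overlapping groups. Ifit3b was at 236, 183, 185, 233 and 152 in 66cl4 and 384, 348, 427, 385 and 455 in 67NR tumours, and its log2 fold change of -1.001 was just past the threshold, while Herc6 at -0.995 and Oas1a at -0.98 were just short of it.

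Among the regulators, 2 of 5 were called. Irf7, the factor that amplifies interferon-α production and is itself induced by interferon, was at 2590, 2954, 2477, 2844 and 2085 in 66cl4 and 6167, 6393, 9029, 8830 and 13934 in 67NR tumours. Groups were apart and 67NR animal 7 was highest (-1.75 ± 0.20, adjusted p = 0.000203). Usp18, a protease that removes ISG15 from proteins and damps receptor signalling, was at 389, 552, 352, 356 and 366 in 66cl4 and 888, 764, 1404, 1555 and 1666 in 67NR tumours (-1.61 ± 0.22, adjusted p = 0.000501). Stat2 and Irf9, which encode parts of ISGF3, differed from each other. Stat2 was at 851, 938, 591, 490.3 and 633 in 66cl4 and 1125, 1190, 1186, 1264 and 1504 in 67NR tumours, with all 66cl4 libraries below 67NR and a change short of the threshold for size (-0.82 ± 0.17, adjusted p = 0.00549). Irf9 was at 1006, 1108, 1057, 883 and 932 in 66cl4 and 951, 828, 1038, 1107 and 1153 in 67NR tumours, with overlapping groups and a log2 fold change of -0.01 ± 0.11, adjusted p = 0.966. Ifi35, which was placed with the regulators, passed the adjusted p-value with a log2 fold change of -0.57.

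Of the 7 antiviral effectors, 3 were called. Mx1, a GTPase that blocks influenza viruses and is defective in most laboratory strains, was at 439.5, 468, 309, 327 and 314 in 66cl4 and 1196, 864, 1345, 1596 and 2030 in 67NR tumours. The groups were apart (-1.90 ± 0.21, adjusted p = 0.000174). Bst2, the tetherin that holds virus particles at the cell surface, was at 424, 473, 425, 513 and 409.9 in 66cl4 and 699, 900.2, 1045, 1137 and 1491 in 67NR tumours and likewise apart (-1.21 ± 0.16, adjusted p = 0.000492). Mx2 was called with overlapping groups (-1.19 ± 0.34, adjusted p = 0.0273). Rsad2, or viperin, an enzyme that makes a chain-terminating nucleotide, was not called, with 2380, 1498, 2143, 2042 and 1196 in 66cl4 and 3109, 1829, 2135, 2311 and 2063 in 67NR tumours (-0.30 ± 0.20, adjusted p = 0.319). Its neighbour Cmpk2 passed the adjusted p-value at -0.90, and the RNase gene Isg20 and Samd9l did not pass.

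In the OAS family, enzymes and related proteins that respond to double-stranded RNA, Oasl2 (-1.54) and Oas1g (-1.05) were called and Oas2 was the 1 of 6 that did not pass. Oasl1 was at 634, 550.4, 572, 512 and 500.3 in 66cl4 and 730.5, 608, 725, 780.1 and 1246 in 67NR tumours (-0.54 ± 0.16, adjusted p = 0.0325), with groups that overlapped narrowly. Of 5 nucleic acid sensors only Zbp1, which binds Z-form nucleic acid, was called (-1.32), and the other 4 passed the adjusted p-value with smaller differences. Among them were Ddx58, the RNA sensor RIG-I (-0.65), and its relative Dhx58, or LGP2 (-0.77). Ifih1, which encodes the RNA sensor MDA5, was at 1025, 825, 797, 687 and 707 in 66cl4 and 1572, 1222, 1548, 1721 and 1869 in 67NR tumours. Ddx60, a helicase that assists such sensors, was at 666, 801, 523, 627 and 513 in 66cl4 and 1295, 865, 1256, 1424 and 1228 in 67NR tumours. Both had all 66cl4 libraries below all 67NR libraries, with log2 fold changes of -0.96 and -0.94.

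Isg15, which encodes the ubiquitin-like modifier, Herc6, its ligase in mice, and Trim30a all passed the adjusted p-value without being called. Of the 7 remaining genes, Ifi44 was at 2591, 2636, 1775, 2657 and 1668 in 66cl4 and 7445, 5348, 8031, 9324 and 8932 in 67NR tumours (-1.77 ± 0.19, adjusted p = 0.000132), with groups far apart. Lgals3bp, a secreted glycoprotein (-1.57), and Xaf1, a pro-apoptotic factor (-1.22), were also called. Rtp4 (-0.67) and Ifi27l2a (-0.78) passed the adjusted p-value. Sp100, a nuclear body protein, and Parp14, an ADP-ribosyltransferase, did not pass.

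**Figure D2:**
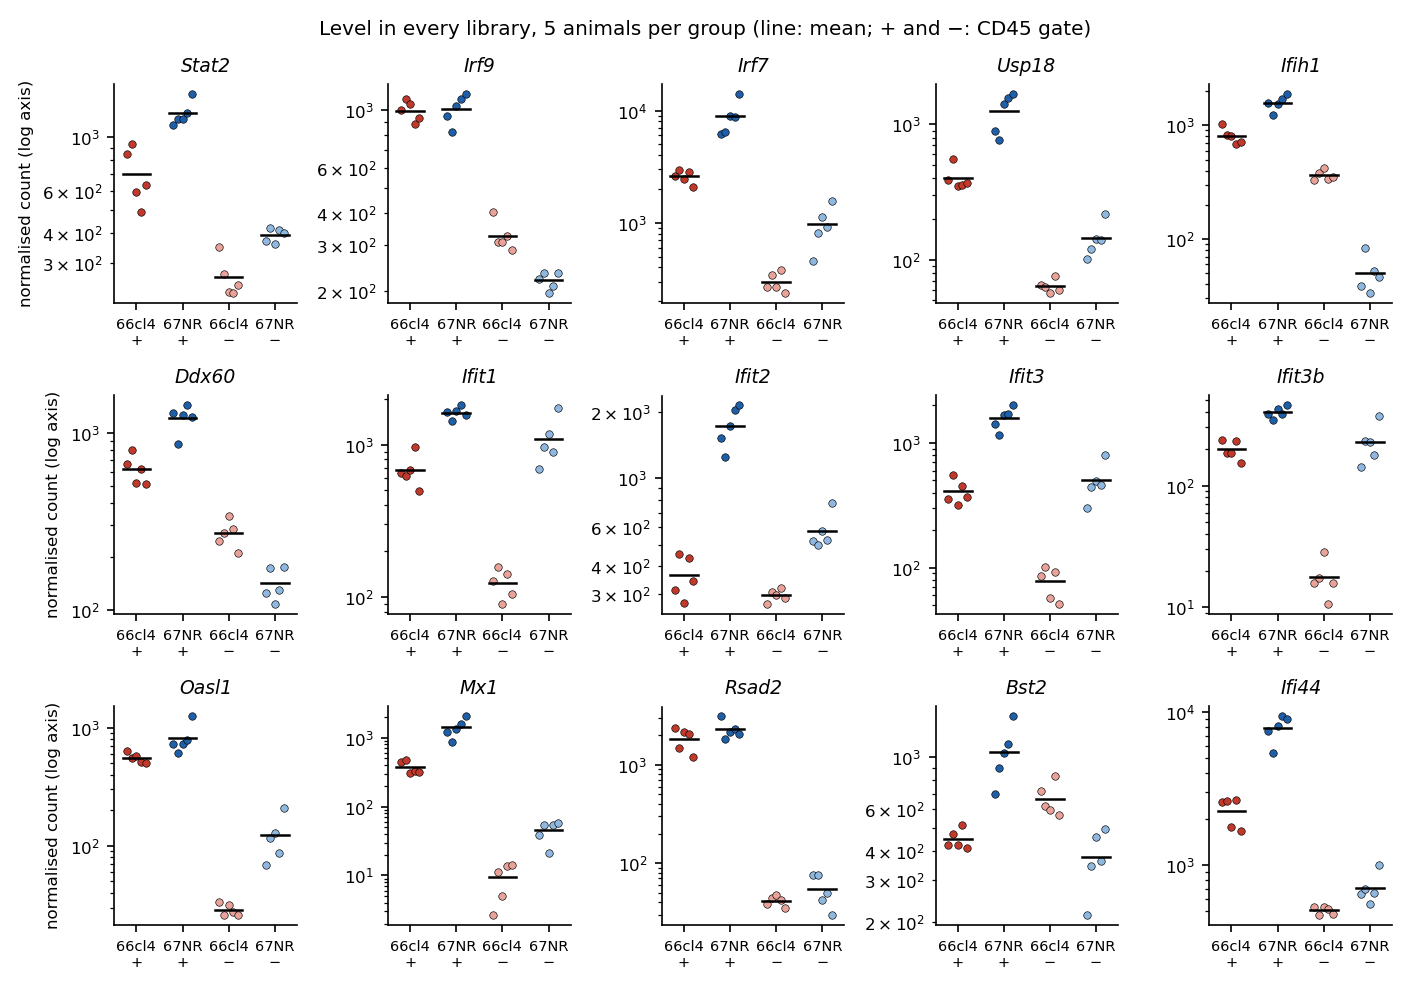
Level of 15 of the genes in each of the 20 libraries (log axis, normalised count), with 5 animals per group and the group mean as a line. Irf7 and Ifit3 are lower in 66cl4 in both gates, whereas Ifih1, Ddx60 and Bst2 are lower in 66cl4 CD45+ but higher in 66cl4 CD45- libraries.

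Cell type markers moved with the tumour in the same CD45+ libraries. The levels of 7 neutrophil markers summed to between 44190 and 125310 in 66cl4 libraries and between 7185 and 52320 in 67NR libraries. Sums over 8 macrophage markers were 54500 to 83705 and 80824 to 120690, and sums of 4 NK cell markers were 895.7 to 2552 and 1633 to 19023. Sums of 6 markers of plasmacytoid dendritic cells, which make much interferon-α, were 1115 to 2726 and 2349 to 3921. By gene, 5 of 7 neutrophil markers were called higher and 4 of 4 NK cell markers lower in 66cl4. Of the 8 macrophage markers 1 was called lower and 3 more passed the adjusted p-value lower. Against this direction 1 passed it higher in 66cl4, with a change short of the threshold for size, and 3 did not pass. Of the 6 plasmacytoid markers 1 was called lower, 2 more passed lower and 3 did not pass, among them Ly6d at 2.54 ± 0.96, adjusted p = 0.084. No marker of these 4 lists was at 0 in all libraries of a CD45+ group. The part of these markers in the lower interferon response genes was not tested.

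The 15 calls became 12 without 66cl4 animal 7 and 20 without 67NR animal 4, 16 without animals 5 and 6 of 66cl4, and 7 when the test was made against an absolute log2 fold change of 1. Mx2, Ifit3b and Oas1g each lost their call in 3 to 6 fits that left out a library, whereas the other 12 were called in each of the 10 such fits.

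CD45- libraries were compared in the same way, to ask what the tumour cells and stroma carried. Of the 37 genes, 16 (43.2%) were called lower and 1 (2.7%), Ifih1, was called higher in 66cl4. Among the 14844 genes tested 18.9% were called lower, 13.2% higher and 32.2% in all, so that background was far higher than in CD45+ cells. The median log2 fold change was -0.55 over the 37 genes and -0.01 over all genes. At any size of change, 22 passed the adjusted p-value lower and 9 higher, while 34.1% of all genes passed it lower and 33.3% higher, and 6 did not pass. Without 66cl4 animals 5 and 6 the same 17 genes were called. Libraries were apart with 66cl4 lower for 20 genes (54.1%) and with 66cl4 higher for 8 (21.6%), against 27.1% and 25.8% of all genes. The share higher in 66cl4 was thus not above that of all genes.

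The largest differences among genes lower in 66cl4 were in the IFIT family, for 3 of its 4 members. Ifit3b was at 15.9, 17.5, 28.3, 10.6 and 15.971 in 66cl4 and 142, 230.3, 227, 178 and 370.2 in 67NR tumours (-3.64 ± 0.30, adjusted p = 1.29e-07), 12.4-fold lower in 66cl4. Ifit1 was at 127, 157, 89.9, 142 and 105 in 66cl4 and 686, 969, 1170, 889 and 1748 in 67NR tumours (-3.10 ± 0.26, adjusted p = 4.72e-07). Ifit3 was at 86.3, 101, 57.4, 92.4 and 50.9 in 66cl4 and 302, 444, 499, 457 and 797 in 67NR tumours (-2.65 ± 0.27, adjusted p = 2.88e-06). In these 3 genes even the lowest 67NR library was above every 66cl4 library. Ifit2, with the largest difference in CD45+ cells, was at 269, 307, 296, 318 and 287 in 66cl4 and 519, 501, 577, 527 and 774 in 67NR tumours here, apart but with a smaller difference (-0.94 ± 0.12, adjusted p = 1.24e-05).

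Oasl1, an OAS-like protein that restrains translation of Irf7, was at 33.2, 26.2, 31.6, 27.6 and 26.0 in 66cl4 and 69.3, 117, 129, 87.5 and 209.7 in 67NR tumours (-2.05 ± 0.27, adjusted p = 1.42e-05). Oas2 (-1.83), Oas3 (-1.37) and Oasl2 (-1.30) were also called lower, so that 4 of the 6 OAS members were. Isg15 (-2.01), Herc6 (-1.16) and Trim30a (-1.07) were all called. The mean level of Isg15 was 85.0 ± 10.3 in 66cl4 and 352 ± 149 in 67NR (SD, n = 5 each), with no overlap of libraries.

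Irf7 was at 265, 342, 269.7, 376 and 237 in 66cl4 and 459, 816, 1131, 923 and 1549 in 67NR tumours (-1.68 ± 0.28, adjusted p = 0.000274), and Usp18 was at 65.0, 62.3, 56.6, 75.4 and 59.9 in 66cl4 and 102, 119, 143, 139.8 and 217 in 67NR tumours (-1.14 ± 0.20, adjusted p = 0.000149). Both were lower in each 66cl4 library. Without 67NR animal 7 the log2 fold change of Usp18 was -0.94, short of the threshold. Stat2 was at 349, 270.0, 228, 225 and 243 in 66cl4 and 371, 420.1, 360.0, 413 and 399.9 in 67NR tumours (-0.55 ± 0.12, adjusted p = 0.00113), and every 66cl4 library was lower. Irf9 went the other way, with 402, 309, 309, 325 and 286 in 66cl4 and 223, 235, 196, 209 and 234 in 67NR tumours (0.60 ± 0.11, adjusted p = 0.000238), and every 66cl4 library was higher.

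Mx1 was low in this gate, with 2.65, 11.2, 4.99, 13.8 and 14.0 in 66cl4 and 38.6, 54.0, 21.1, 53.1 and 58.3 in 67NR tumours (-2.20 ± 0.39, adjusted p = 0.000212). Mx2 (-1.63), Xaf1 (-1.51) and Ifi27l2a (-1.97) were called lower too. Ifi44 was at 536, 474, 533, 518 and 479 in 66cl4 and 649, 701, 558, 660.2 and 1009 in 67NR tumours, with groups apart and a small difference (-0.46 ± 0.14, adjusted p = 0.00828). Rsad2 was at 38.5, 44.3, 47.4, 42.5 and 34.9 in 66cl4 and 75.5, 75.8, 42.1, 49.2 and 29.7 in 67NR tumours with overlapping groups (-0.36 ± 0.25, adjusted p = 0.227).

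Ifih1 stood against this direction. Its levels were 329, 384, 420.4, 339 and 351 in 66cl4 and 38.6, 82.5, 33.4, 52.3 and 46.0 in 67NR tumours, which is 7.33-fold higher in 66cl4 (2.87 ± 0.20, adjusted p = 2.32e-08). Ddx60 was at 244, 273, 339, 288 and 209.6 in 66cl4 and 125, 172, 108, 129 and 176 in 67NR tumours, and Bst2 was at 715, 621, 599, 835 and 567 in 66cl4 and 213, 346, 457, 363 and 497 in 67NR tumours. Both were higher in every 66cl4 library, with log2 fold changes of 0.97 ± 0.16, adjusted p = 0.000128 and 0.86 ± 0.19, adjusted p = 0.00159. Lgals3bp (0.81), Isg20 (0.83), Oas1g (0.70), Irf9, Samd9l (0.46) and Parp14 (0.45) also passed the adjusted p-value higher in 66cl4. Genes higher in 66cl4 were no larger a share of the 37 than of all genes, at 21.6% against 25.8% for libraries apart.

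The 6 genes that did not pass in this gate were Ddx58 (-0.00), Zbp1 (-0.51), Oas1a (0.23), Rsad2, Cmpk2 (-0.07) and Sp100 (-0.05). Dhx58 (-0.99) was just short of the threshold for size, and Ifi35 (-0.51) and Rtp4 (-0.35) passed the adjusted p-value lower in 66cl4.

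Markers of leukocytes and endothelium differed between the tumours in this gate as well. Ptprc was at 10.6, 26.2, 138, 40.4 and 161 in 66cl4 and 205, 473, 145, 332 and 178 in 67NR tumours and was called lower in 66cl4 (-1.79 ± 0.66, adjusted p = 0.0361), although the groups overlapped. Of 7 leukocyte markers 4 were called lower, Cd53 and Coro1a did not pass, and Itgb2 was called higher in 66cl4 (3.92 ± 0.16, adjusted p = 1.01e-10), with libraries apart. Of 8 macrophage markers 4 were called lower and none higher. All 3 monocyte markers tested were called lower, among them Ly6c2 (-3.07) and Plac8 (-2.81). Of 5 endothelial markers 4 were called lower with libraries apart, namely Pecam1 (-3.33), Kdr (-3.70), Tie1 (-3.38) and Emcn (-2.07), and their list summed to 519 to 1025 in 66cl4 and 997 to 4135 in 67NR libraries. The part of these markers in the differences of the interferon response genes was not tested. The levels left in the CD45- gate were set against those in the CD45+ gate of the same tumour. For 6 leukocyte markers the CD45- mean was 0.385 to 0.873% of the CD45+ mean in 66cl4 and 1.22 to 2.34% in 67NR tumours. Itgb2, the seventh, was at 26.3% and 3.10%, and in 66cl4 CD45- libraries its mean was 3434 ± 210.4 (SD, n = 5). The share was above that of the 6 markers for all 37 genes in both tumours, and more than 3 times their highest share for 35 genes in 66cl4 and 33 in 67NR. In 67NR it was 67.7% for Ifit1, 57.5% for Ifit3b, 54.9% for Isg15 and 31.4% for Ifit3, but 3.202% for Mx1, 3.19% for Ifih1 and 2.38% for Rsad2. In 66cl4 it was 45.1% for Ifih1, 18.2% for Ifit1, 2.51% for Mx1 and 2.24% for Rsad2. Within 3 times the highest marker share were thus Mx1 and Rsad2 in both tumours, and Ifih1 and Cmpk2 in 67NR alone. Itgb2 was set apart after its value had been seen.

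**Figure D3:**
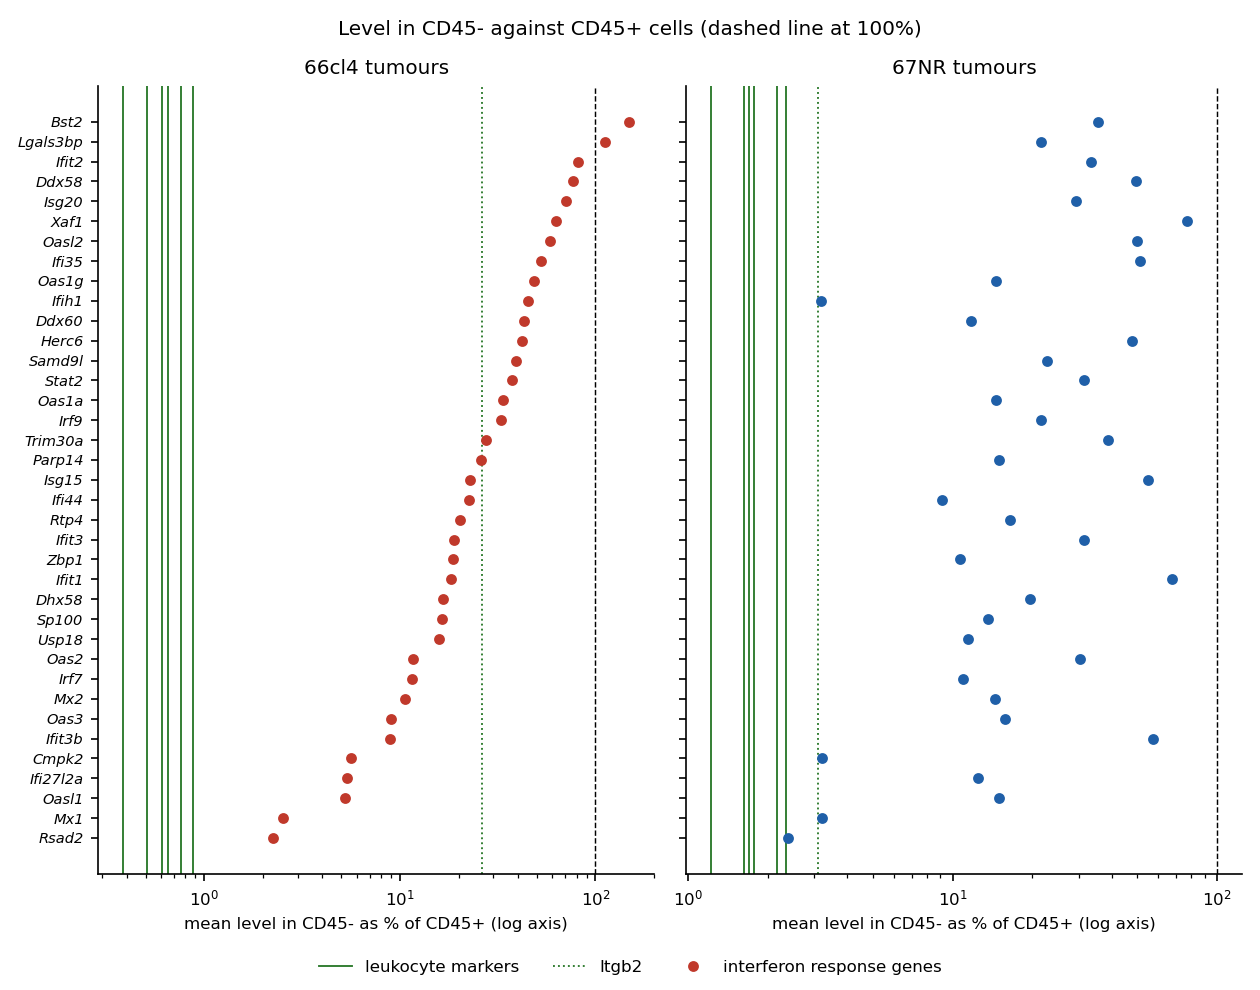
Mean level of each of the 37 genes in CD45- cells as a percentage of the mean level in CD45+ cells of the same tumour (log x axis, 5 libraries per group), with 6 leukocyte markers as solid lines and Itgb2 as a dotted line. In 67NR tumours Rsad2, Ifih1, Mx1 and Cmpk2 lie nearest to the markers, and in 66cl4 tumours Bst2 (149%) and Lgals3bp (112%) lie right of the line at 100%.

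Read together, 9 genes were called lower in 66cl4 in both gates, namely Irf7, Usp18, Ifit1, Ifit3, Ifit3b, Oasl2, Mx1, Mx2 and Xaf1. This is 24.3% of the 37 genes, beside 3.69% of the 13212 genes tested in both gates. Another 6 were called lower only in CD45+ (Zbp1, Ifit2, Oas1g, Bst2, Ifi44 and Lgals3bp) and 7 only in CD45- cells (Isg15, Herc6, Trim30a, Oas2, Oas3, Oasl1 and Ifi27l2a). For genes called in a single gate the share of all genes was not calculated, so the 6 and the 7 have no background beside them. Of all genes tested in each gate, 6.82% were called lower in CD45+ and 18.9% in CD45- cells, with or without a call in the other gate. Whether a gene belongs to the set of both gates or of a single gate rests on thresholds, so the difference between gates was tested itself.

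The interaction is the log2 fold change between tumours in CD45+ cells minus that in CD45- cells. It passed an adjusted p-value of 0.05 for 22 of the 37 genes, or 59.5%, beside 43.1% of the 16453 genes tested. For 14 genes, or 37.8%, it was negative, beside 21.2% of all genes. For 8 genes, or 21.6%, it was positive, which is no more than the 21.9% of all genes. It was largest for Ifih1 (-3.83 ± 0.25, adjusted p = 4.84e-10), followed among negative values by Lgals3bp (-2.39 ± 0.34, adjusted p = 1.8e-05), Bst2 (-2.07 ± 0.28, adjusted p = 7.94e-06) and Ddx60 (-1.90 ± 0.24, adjusted p = 2.62e-06). In these 4 genes and in Oas1g the libraries were apart in both gates, lower in 66cl4 CD45+ and higher in 66cl4 CD45- cells. Genes with these 2 directions were 13.5% of the 37 genes beside 0.658% of the 13212 genes tested in both gates. Positive values were led by Ifit3b (2.64 ± 0.33, adjusted p = 2.75e-06), Ifit1 (1.88 ± 0.30, adjusted p = 5.37e-05) and Oasl1 (1.504 ± 0.33, adjusted p = 0.00114), which differed more in CD45- than in CD45+ cells. Ifit2 went the other way (-1.29 ± 0.23, adjusted p = 0.00016). The IFIT family was thus divided, with Ifit3 not passing (0.71 ± 0.33, adjusted p = 0.0894), although it passed with the animal as a block (0.69, adjusted p = 0.016 by edgeR). The interaction of Irf7 was -0.08 ± 0.36, adjusted p = 0.878, that of Mx1 0.29 ± 0.42, adjusted p = 0.608, and that of Stat2 -0.27 ± 0.22, adjusted p = 0.323. Without 66cl4 animals 5 and 6 the 22 genes became 15, of which 5 were positive. With all libraries, cell type markers also passed with positive values, 5 of 7 leukocyte, 2 of 8 macrophage, 3 of 4 monocyte and 3 of 5 endothelial markers. In these lists 1 marker, Itgb2, passed with a negative value (-3.10). The part of these markers in the interaction of the 37 genes was not tested.

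The 2 gates were compared within each tumour. In 66cl4 tumours 29 of the 37 genes were called higher in CD45+ cells and none lower, beside 23.9% of 14916 genes called higher, 20.5% lower and 44.4% in all. In 67NR tumours 32 were called higher and none lower, beside 20.2% of 15063 genes called higher, 19.6% lower and 39.8% in all. Median log2 fold changes were 2.09 and 2.34, and 26 genes, or 70.3%, were called higher in both tumours, beside 16% of the 14050 genes tested in both. With the animal as a block, Oas1g in 66cl4 lost its call at a log2 fold change of 0.96. Without 66cl4 animals 5 and 6 only Oas1g lost its call in that tumour, and no gene gained one. These comparisons use the same libraries as those between tumours, so they add levels and not independent evidence.

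Rsad2 differed most between the gates, in 66cl4 (5.43 ± 0.21, adjusted p = 1.05e-09) and in 67NR (5.38 ± 0.27, adjusted p = 2.59e-08), or 43.2-fold and 41.7-fold. Mx1 was at 5.23 ± 0.30, adjusted p = 1.51e-08 in 66cl4 and 4.95 ± 0.30, adjusted p = 7.74e-08 in 67NR. Oasl1 came after Mx1 in 66cl4 (4.23 ± 0.13, adjusted p = 5.07e-10) and at 2.73 in 67NR. Ifih1 came next to Rsad2 in 67NR (4.96 ± 0.23, adjusted p = 1.47e-08) and at 1.11 in 66cl4. Bst2 was the 1 gene that passed the adjusted p-value lower in CD45+ cells, in 66cl4 tumours (-0.60 ± 0.13, adjusted p = 0.000886), while in 67NR it was higher in CD45+ cells (1.48 ± 0.24, adjusted p = 0.000181). Isg15, Ifit1 and Ifit3b were called between the gates in 66cl4 and not in 67NR, though Isg15 and Ifit3b were called there too without the CD45- library of animal 7 (1.02 and 1.03), and Isg15 without that of animal 5 (1.01). In 67NR their CD45- levels came within 1.82-, 1.47- and 1.74-fold of those in CD45+ cells.

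Set side by side per transcript length as mean TPM, the order of the genes also differed between groups. In 67NR CD45+ cells the 3 highest were Ifi27l2a at 476 ± 143, Irf7 at 446 ± 177 and Sp100 at 383 ± 117 TPM (SD, n = 5), within each other's SD. In 66cl4 CD45+ cells they were Sp100 at 302 ± 102, Ifi27l2a at 266 ± 52.2 and Trim30a at 191 ± 43.3 TPM. In 66cl4 CD45- cells Lgals3bp led at 78.2 ± 12.1 and Bst2 followed at 76.0 ± 9.14 TPM, within the spread. Trim30a led in 67NR CD45- cells at 115 ± 17.6 TPM. Ifit3b and Mx2 were both among the 3 lowest genes in 3 of the 4 groups.

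The summed level of the 37 genes shows how animals varied. In CD45+ cells it was 2006, 2446, 1700, 1759 and 1807 TPM in 66cl4 animals 3 to 7, and 2862, 2913, 3766, 4377 and 5119 TPM in 67NR animals 1, 4, 5, 6 and 7. In CD45- cells it was 633, 606, 596, 568 and 563 TPM in 66cl4 and 617, 882, 785, 836 and 1100 TPM in 67NR animals. The CD45+ sums did not overlap between tumours, whereas 67NR animal 1 lay within the 66cl4 range in CD45- cells. Such a sum is weighted to the most abundant genes. As a mean over the 37 genes of the log2 level relative to each gene's mean, 67NR animal 1 was at -1.11 in CD45- cells. The 66cl4 CD45- libraries were at -1.60 to -1.37 on that scale. 67NR animal 7 had the highest level of its group for 27 genes in CD45+ and for 26 genes in CD45- cells. 67NR animal 4 had the lowest level for 29 genes in CD45+ cells but for 1 gene in CD45- cells, where animal 1 was lowest for 20.

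**Figure D4:**
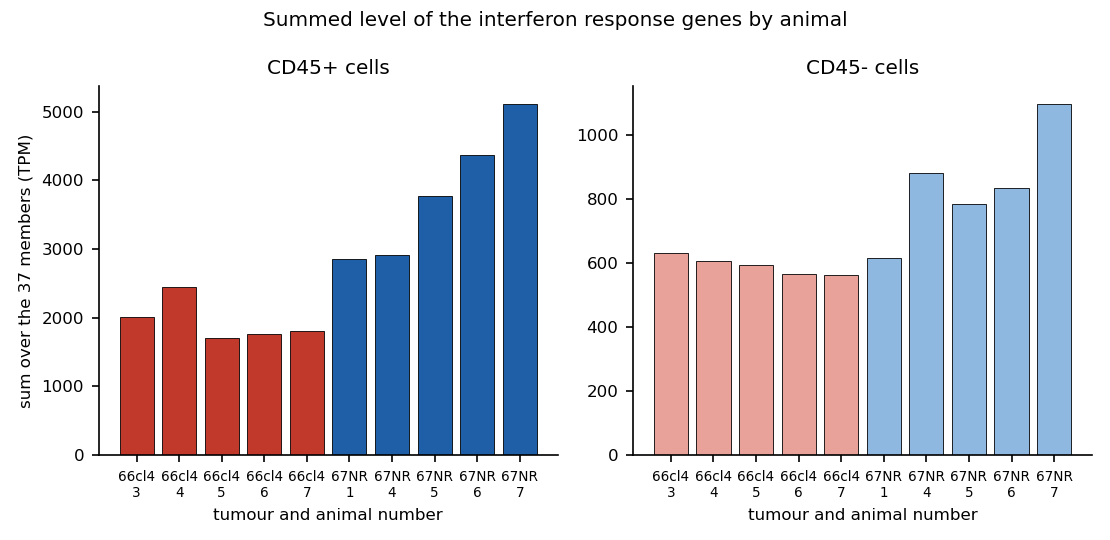
Sum of the 37 genes in TPM (y axis, from 0) for each animal in CD45+ (left) and CD45- cells (right), 66cl4 animals in red and 67NR animals in blue. The highest bar of both panels is 67NR animal 7 (5119 and 1100 TPM).

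The genes upstream of the response were read next. Of 20 interferon genes, 11 had no count in any library and 17 never had more than 3 counts in a library. The other 3 were Ifnb1, Ifna4 and Ifng. Ifnb1, the gene of interferon-β, had 0, 1, 1, 2 and 0 counts in 66cl4 CD45- libraries and 3, 6, 19, 8 and 22 in 67NR CD45- libraries. Its ratio of 67NR over 66cl4 was 13.6, with a 95% exact interval of 5.03 to 51.6 for counting error, and all 67NR libraries were higher (two-sided exact permutation test of mean levels, p = 0.00794, the smallest the 252 splits allow, and 0.0159 adjusted over 4 such tests). In CD45+ libraries the ratio was 3.70 (1.14 to 15.6), from 4 against 13 counts in all, with an exact permutation p of 0.0159 and 0.0212 adjusted. Within 67NR tumours Ifnb1 was 3.30 times as high (1.79 to 6.56) in CD45- as in CD45+ libraries, with an exact permutation p of 0.0714. That test took the libraries as independent, although both gates came from the same animals. The ratios of Ifnb1 divide summed counts by summed size factors, while the tests used mean levels. Ifna4 had no counts in 66cl4 CD45- and 2 to 7 in each 67NR CD45- library, and the exact 95% interval of its ratio began at 5.13 (exact permutation p = 0.00794, adjusted 0.0159). Levels this low are near the detection limit of these libraries. The 4 permutation tests covered Ifnb1 and Ifna4 in chosen comparisons only, not all 20 interferon genes or every comparison. Their adjustment does not cover that choice, so the adjusted values may be too small.

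Ifng, the interferon-γ gene, was at 40.3, 58.3, 25.1, 37.9 and 68.5 in 66cl4 and 108, 301, 443, 528 and 617 in 67NR tumours in CD45+ cells, with groups apart (-3.08 ± 0.43, adjusted p = 0.000769). In CD45- cells it was at 0, 0, 0.832, 0 and 2.0 in 66cl4 and 12.3, 15.004, 21.1, 14.1 and 24.5 in 67NR tumours (-4.69 ± 0.59, adjusted p = 8.17e-06), and its 67NR mean was 4.35% of that in CD45+ cells. 67NR animal 7 was highest for Ifng in both gates and for Ifnb1 in CD45- cells.

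**Figure D5:**
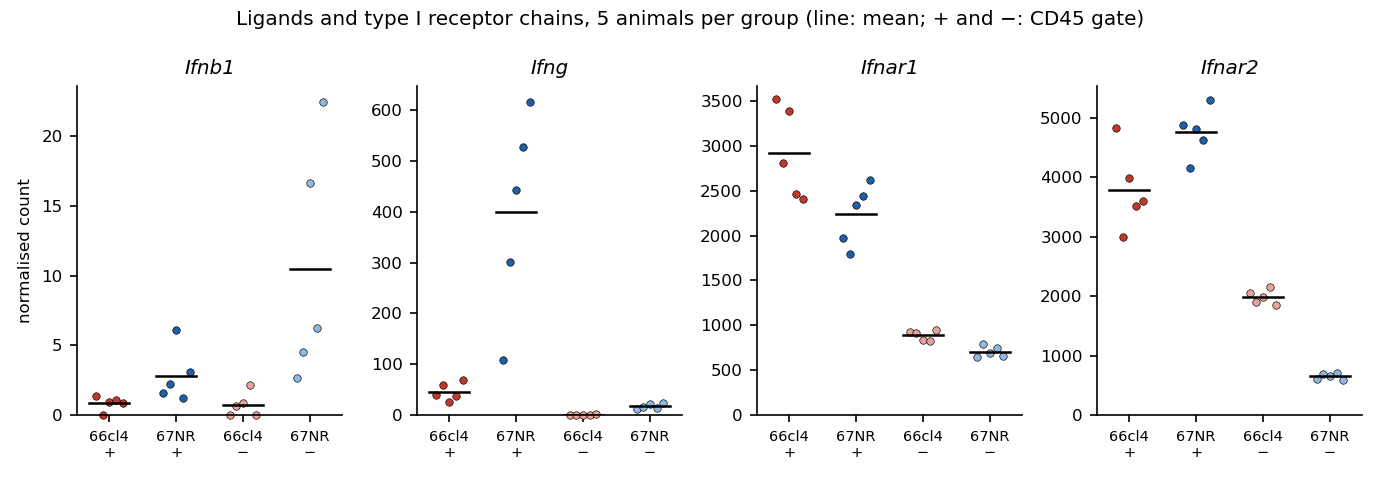
Normalised counts of Ifnb1, Ifng, Ifnar1 and Ifnar2 in each of the 20 libraries (y axis, from 0), with 5 animals per group and the mean as a line. Ifnb1 is at 2.63 to 22.5 in 67NR CD45- and at 2.12 or less in 66cl4 CD45- libraries, and Ifnar2 is higher in 66cl4 than in 67NR CD45- libraries.

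Receptor chains were tested for the same differences. Ifnar1 passed in CD45- cells only, higher in 66cl4 (0.36 ± 0.08, adjusted p = 0.0015), with 0.40 ± 0.14, adjusted p = 0.059 in CD45+ cells. Ifnar2 was at 2052, 1910, 1986, 2160 and 1849 in 66cl4 and 605, 686, 649, 705 and 596 in 67NR tumours in CD45- cells and was called higher in 66cl4 (1.65 ± 0.08, adjusted p = 5.19e-10), while in CD45+ cells its groups overlapped (-0.32 ± 0.13, adjusted p = 0.108). Of 5 receptor genes tested in CD45- cells 3 were called higher in 66cl4, and of 6 tested in CD45+ cells 1, Ifnlr1, was called higher in 66cl4 CD45+ cells (1.92). None was called lower in either gate, and among all genes 13.2% in CD45- and 5.01% in CD45+ cells were called higher.

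Of the feedback inhibitors of signalling, Socs3 was called higher in 66cl4 CD45- cells (1.71) and was at 0.20 ± 0.11, adjusted p = 0.201 in CD45+ cells. Of 5 other IRF genes, none was called in CD45+ cells and Irf3, the factor that starts interferon-β transcription, was called lower in 66cl4 CD45- cells (-1.21 ± 0.15, adjusted p = 7.69e-06). Irf1 was at -0.35 ± 0.14, adjusted p = 0.108 in CD45+ and 0.07 ± 0.13, adjusted p = 0.638 in CD45- cells. Of 11 genes of nucleic acid sensing, Ifi204 (-1.30 ± 0.16, adjusted p = 0.00034) was called lower and Ikbke (1.21 ± 0.15, adjusted p = 0.000356) higher in 66cl4 CD45+ cells. In CD45- cells the adaptor gene Mavs was called lower in 66cl4 (-1.24 ± 0.13, adjusted p = 1.08e-06), while its partner sensor gene Ifih1 was higher.

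A list of 20 other interferon-stimulated genes was set beside the 37. In CD45+ cells 3 of 20 (15%) were called lower and 1 (5%) higher, beside 6.82% and 5.01% of all genes, and the median of the 20 was -0.50 on the log2 scale. Phf11d (-1.54) was lowest and Ifitm1 (1.69) was the 1 called higher. In CD45- cells 18 were tested, 1 (5.56%) was called lower and 3 (16.7%) higher, with a median of 0.13, while 18.9% and 13.2% of all genes were called lower and higher. Slfn5 was 10.1-fold lower in 66cl4 (-3.34 ± 0.28, adjusted p = 7e-07). Parp9 (2.36 ± 0.15, adjusted p = 7.22e-09) and Dtx3l (2.23 ± 0.15, adjusted p = 1.24e-08), partners that act together on chromatin, were called higher in 66cl4 CD45- cells. Their interaction values, -2.82 and -2.83, stood between those of Ifih1 and Lgals3bp.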

How the data were processed

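RNA from 20 sorted samples of 10 animals was sequenced as Lexogen SENSE mRNA libraries. The authors trimmed reads with fastp, quantified transcripts with Salmon 1.3.0 and deposited one table of estimated counts per gene, summarised with tximport. The sources name a human build, GRCh38, although the identifiers are those of mouse genes. Counts were rounded for testing, and 51492 of 52783 genes had a symbol. Groups follow the sample titles. Depth was 12960000 to 28080314 counts per library.

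Comparisons used edgeR 4.0.16 in R 4.3.3 (TMM scaling, robust quasi-likelihood test, Benjamini-Hochberg adjustment over all genes tested), after filterByExpr had removed low genes (count 10, total 15). Levels are counts over DESeq2 1.42.0 size factors. TPM was used to set genes side by side. It was calculated from the rounded counts and the mean transcript length per gene of a mouse reference, and is not the TPM of Salmon. Errors of log2 fold changes are standard errors. The script was tested on simulated data. Members and lists were chosen with earlier results of these data known. Values in every library are given for Stat2, Irf9 and Irf7, for the 6 members with the largest change in each comparison between tumours and the 3 with the largest between gates, and for the 4 with the smallest interaction p, 15 genes in all.

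Both gates came from the same animals, and deviations from the group mean correlated between the gates of an animal by 0.0245 to 0.124 in 66cl4 and -0.00142 to 0.303 in 67NR. Between tumours animals share only a number. The labels name separate animals as replicates, and no pair of libraries agreed within sampling noise. Intervals and limits cover counting error only. Alternatives were DESeq2, other scaling and filters, a fit over all libraries, a test against a fold, a replicate block, and leaving out libraries. Results for 2 genes of the pathway and marker lists are not reported here.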

Additional observations from a re-analysis of the deposited data

Results flagged for a closer look

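The tumour effect differed between the gates for 22 genes by the interaction term of edgeR (log2 fold change in CD45+ minus that in CD45- cells). It was negative for Ifih1 (-3.83), Lgals3bp (-2.39), Bst2 (-2.07), Ddx60 (-1.90), Oas1g (-1.75), Ifi44 (-1.30), Isg20 (-1.29), Ifit2 (-1.29), Oas1a (-1.22), Cmpk2 (-0.83), Parp14 (-0.80), Samd9l (-0.79), Ddx58 (-0.65) and Irf9 (-0.61). It was positive for Ifit3b (2.64), Ifit1 (1.88), Oasl1 (1.504), Oas2 (1.36), Isg15 (1.24), Ifi27l2a (1.19), Oas3 (0.80) and Trim30a (0.48). Of these, Trim30a, Oas3, Samd9l and Ifi27l2a lost their call in at least 1 fit that left out a library. Without 66cl4 animals 5 and 6, Oas3, Samd9l and Ifi27l2a lost it as well, and so did Cmpk2, Ddx58, Isg15 and Parp14. With all libraries, genes passing with a negative value were 37.8% of the 37, beside 21.2% of all genes. Those passing with a positive value were 21.6%, beside 21.9% of all genes.

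Among 68 sets of 5 libraries examined, 3 held a library far from the rest. Chance flags about 1 in 20, or 3.4 of the 68, so the 3 are no more than chance gives. Usp18 was at 552 in 66cl4 CD45+ animal 4, and the next library was at 389. Ifit2 was at 774 in 67NR CD45- animal 7, and the next library was at 577. Oasl1 was at 1246 in 67NR CD45+ animal 7, and the next library was at 780.1.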

How the results depend on the processing

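In CD45+ cells the 15 genes called lower in 66cl4 became 7 when tested against an absolute log2 fold change of 1, and 15 to 17 under DESeq2, other scaling, other filters and a fit over all libraries. The replicate block gave 16, of which 14 were shared, and the numbers pair no animals between tumours. Leaving out each library gave 12 to 20 in CD45+ cells, 17 to 19 in CD45- cells, 28 to 29 and 30 to 35 between gates in 66cl4 and 67NR, and 20 to 23 for the interaction. Other settings gave 13 to 18 in CD45- cells, 24 to 29 and 29 to 33 between gates, and 15 to 24 for the interaction, with 24 under the block, which pairs gates within animals and which added 2 genes to the interaction, Ifit3 among them, and removed Oas1g from those called in 66cl4. The longer response element moved the promoter share from 42.9% to 28.6%.

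Direction turned only for values near 0, and the cause was not tested. Irf9 in CD45+ cells was at 0.0046 without 66cl4 animals 5 and 6, and at -0.074 to 0.034 leaving out each library. In CD45- cells Ddx58 was at 0.032 with no filter, at 0.062 without these animals, and at -0.0496 to 0.0496 leaving out each library. Leaving out each library gave -0.19 to 0.0761 for Cmpk2 and -0.099 to 0.00197 for Sp100. The interaction of Rsad2 was -0.029 with the stricter filter, -0.0045 with the replicate block and -0.17 to 0.18 leaving out each library. That of Irf7 was 0.0398 without 66cl4 animals 5 and 6, and -0.40 to 0.14 leaving out each library.

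Depth limits the interferon genes most, of which 17 never passed 3 counts in a library, and Ifnb1 rests on 4 against 58 counts in CD45- cells.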
